A study of Mus musculus with 2 samples.

Results

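The collagen gene family was followed through neural differentiation of R1, a mouse line of embryonic stem (ES) cells. Members were all gene probes whose symbol in the scanner files is Col, a number, a and a number, which gave 40 genes (Col1a1 to Col28a1) with 78 probes, of 41174 gene probes and 19505 named genes on the array. Symbols such as Col4a3bp, which is no collagen, were left out. A RefSeq gene table lists 44 collagen symbols, and Col6a4, Col6a5, Col6a6 and Col26a1 carried no probe under such a name. Total RNA was hybridised to one-colour Agilent expression arrays with 1 array per group. The day 0 group was undifferentiated R1 ES cells, cultured with serum and leukaemia inhibitory factor (LIF) over a layer of growth-arrested fibroblast feeders. The day 6 group was R1 cells taken through direct neural differentiation and harvested as embryoid bodies, and the labels also call these cells neural precursors. Both groups come from the same cell line and carry no transgene or gene deletion in the labels. With 1 array per group there is no test, no replicate error and no p-value, so all differences describe these RNA samples only. In bulk RNA, fewer cells of a type and less RNA per cell cannot be told apart.

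Collagens are secreted proteins built from 3 chains that wind around each other, and each chain is the product of its own gene. Fibrillar collagens assemble into the cables of skin, bone, tendon and cartilage. Type IV collagens form the sheet-like network of basement membranes, the type VI collagens form beaded filaments, and other collagens decorate fibrils, anchor epithelia or span the cell membrane. Before fibrils form, chains are hydroxylated, folded with the help of chaperones, exported, trimmed at their ends and cross-linked. Basement membranes surround early embryonic epithelia and the neural tube, whereas fibril collagens are made mainly by fibroblasts and by cartilage and bone cells.

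For each gene the intensity below is that of the probe with the highest mean log2 intensity among its usable probes. Intensities are scanner units after the software's background subtraction, and they are not compared between genes, since probes differ in brightness. Differences are day 6 minus day 0 in log2 units after each array was divided by its 75th percentile (3758 on day 0 and 4388 on day 6). The error given with a difference is the scanner software's own technical SD, with a median of 0.21 log2 units over the collagens, and it holds no variation between cultures. A probe was usable where the software marked it well above background on the day 0 array, the day 6 array or both. For a gene that was so marked on only 1 array the fold is a bound, written "at least", which sets the bright array against the dim array's lowest well-measured signal or the probe's own signal, whichever is higher.

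Of the 40 collagen genes, 34 were measured. A total of 27 were well above background on both arrays, Col12a1 and Col17a1 on day 0 only, and Col6a2, Col9a1, Col19a1, Col20a1 and Col23a1 on day 6 only. Col4a3, Col10a1, Col14a1, Col15a1, Col25a1 and Col28a1 were not well above background with any probe. No collagen spot was saturated (0 of 78 probes) or removed as an outlier. On day 6, 11 of the 34 genes (32.4%) were lower by 2-fold or more, against 20.1% of the 14967 genes measured in the same way. A further 10 (29.4%) were higher by 2-fold or more, against 17.8% of all genes. At 4-fold, 3 were lower (background 8.35%) and 6 were higher (background 7.35%). The remaining 13 were under 2-fold apart, against 62.2% of all genes. The collagens thus differed in both directions. Their median difference was -0.06 log2 units beside -0.09 for all genes. The sign of the collagen median turned in some scalings (0.02 over the 75th percentile of probes bright on both arrays). It also turned with genes dim on 1 array set to their bounds (0.04). The middle of the collagen distribution was wider, with quartiles of -1.56 and 1.80 against -0.81 and 0.73, all taken without bounds. A 2-fold difference is therefore common on these arrays, and the shares describe the family without a test of it.

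**Figure D1:**
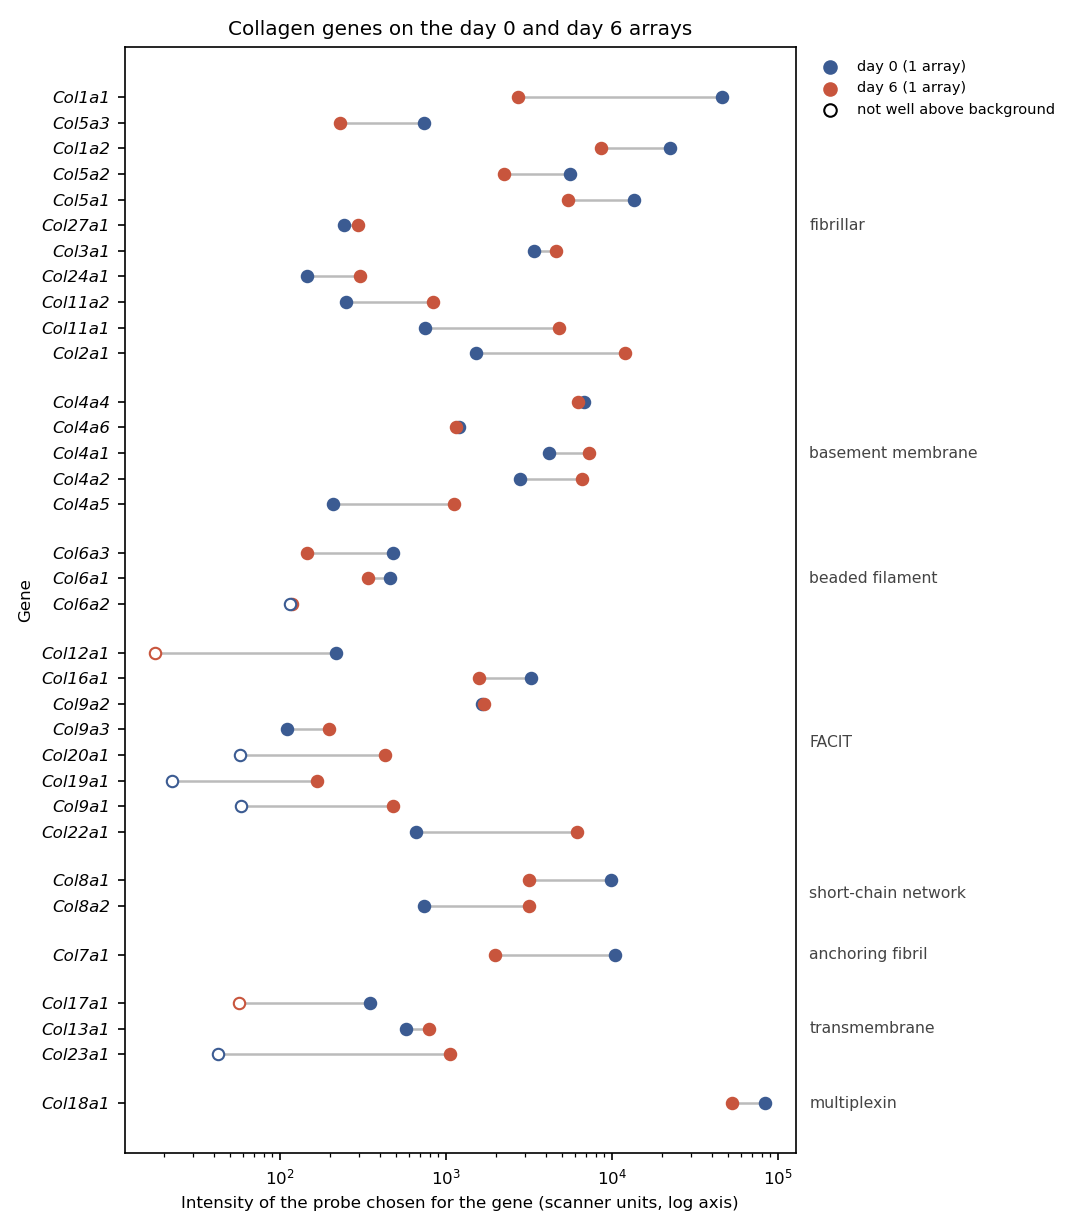
Intensity (scanner units, log axis) of the probe chosen for each of the 34 measured collagen genes on the day 0 array (blue) and the day 6 array (red), grouped by class, with open circles where the probe was not well above background. Lines join the 2 arrays of a gene; Col1a1 shifts left from 46224 to 2700, while Col2a1 shifts right from 1524 to 12044.

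The fibrillar class held genes at both ends of the family's range. All 11 fibrillar genes were measured, of which 5 were lower, 3 were higher and 3 were under 2-fold apart on day 6 (all genes: 20.1% lower, 17.8% higher). The fibrillar median of 0.07 is close to 0. It lies below 0 with median scaling (-0.04), with quantile normalization (-0.03) and in the authors' value table (-0.02). The fibrillar genes that were lower encode the chains of type I collagen, the main collagen of bone, tendon and skin, and of type V collagen, which joins type I fibrils and limits their width. Those that were higher encode the chains of the cartilage type collagens II and XI.

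Col1a1 (NM_007742), the main chain of type I collagen, had 46224 units of intensity on day 0 and 2700 on day 6, a difference of -4.32 ± 0.20 and a 20.0-fold lower level. Only 2.53% of all measured genes ranked lower. Its probe was spotted 10 times on each array, and the SD between these spots was 0.0588 log2 units on day 0 and 0.0507 on day 6. This SD is a spread within an array and holds no variation between cultures. A second Col1a1 probe had 1032 on day 0 and 71.9 on day 6, where it was not well above background, and was at least 14.1-fold lower. Col1a2, the partner chain of type I collagen, went the same way with a smaller difference, from 22278 to 8621 (-1.59 ± 0.20, 3.02-fold lower). The 2 partner chains thus differed by unequal amounts, although Col1a2 was still bright on day 6.

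The 3 type V chains had much the same difference as Col1a2. Col5a1 had 13623 on day 0 and 5435 on day 6 (-1.55 ± 0.20). Col5a2 had 5624 and 2228 (-1.56 ± 0.20). Col5a3, whose product replaces another chain in some type V trimers, had 733 and 230 (-1.89 ± 0.24). All 3 stayed well above background on day 6. Day 0 was the higher array for each, and the 3 differences lie within about their software errors of each other.

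The ES cells had grown on fibroblasts, so fibroblast markers other than collagens are given beside these genes. Of 16 such markers 15 were measured, of which 7 were lower, 2 were higher and 6 were under 2-fold apart on day 6, with a median of -0.66, beside 20.1% lower and 17.8% higher among all genes. S100a4, a calcium-binding protein of motile fibroblasts, had 17483 and 128 (159-fold lower), Lox, the enzyme that cross-links collagen, was at least 118-fold lower, and Thy1, a surface antigen of fibroblasts, had 20274 and 798 (29.7-fold lower). Pdgfra, a growth factor receptor of mesenchyme, was at least 4.29-fold higher and the fibril proteoglycan Lum was 3.20-fold higher, while Fap was not well above background. Thus the markers did not move as 1 group. Their part in the collagen values was not tested.

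Col2a1 (NM_031163), the collagen of cartilage that is also made around the notochord and in early neuroepithelium, showed the opposite difference. Its 2 usable probes lie 20 bases apart on the minus strand of chromosome 15 (mm7), at chr15:97979237-97979296 and chr15:97979257-97979316. They are printed to show how far their measurements are independent, with the 40 bases that both share in capitals, 5′ to 3′ in the sense of the transcript.
Col2a1 probe spotted 10 times: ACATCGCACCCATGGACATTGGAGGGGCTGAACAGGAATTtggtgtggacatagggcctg
Col2a1 probe spotted 1 time: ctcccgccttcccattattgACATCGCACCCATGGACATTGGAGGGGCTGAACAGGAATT
The probe spotted 10 times had 1428 on day 0 and 11576 on day 6 (2.80 ± 0.21), with an SD between spots of 0.0714 and 0.0365 log2 units. The other had 1524 and 12044 (2.76 ± 0.20, 6.77-fold higher). The probes differed by 0.04 log2 units, and since they overlap in most of their length they measure nearly the same stretch of RNA. Col2a1 ranked at the 94.6th percentile of all measured genes.

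The type XI chains, which join type II collagen in cartilage fibrils, followed Col2a1. Col11a1 had 753 on day 0 and 4825 on day 6 (2.46 ± 0.21, 5.49-fold higher). A second Col11a1 probe had 36.6 on day 0, not well above background, and 261 on day 6. Col11a2 had 249 and 832 (1.52 ± 0.26, 2.86-fold higher). So the 3 genes for collagens of types II and XI were all higher on day 6, each past 2-fold. The remaining fibrillar genes were Col3a1, the collagen of extensible tissues and vessel walls, with 3380 and 4589 (0.22 ± 0.20), Col24a1 with 144 and 301 (0.84 ± 0.30), and Col27a1, a gene of developing cartilage, with 242 and 297 (0.07 ± 0.27). Of these, Col24a1 had a second probe with 24.3 on day 0, not well above background, and 354 on day 6, which as a bound was above 2-fold. The mean of both Col24a1 probes gave 2.24. The sign of the Col27a1 value turned with median scaling (-0.04).

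Since types II and XI are known from cartilage, chondrocyte markers are given beside them. Of 9 listed markers 8 were measured, of which 2 were lower, 3 were higher and 3 were under 2-fold apart (all genes: 20.1% lower, 17.8% higher). Sox9, the transcription factor of chondrocytes that is also expressed in neural progenitors, had 410 and 9906 (20.7-fold higher), and Sox6, which acts with it, had 128 and 2083 (13.9-fold higher). Comp, a cartilage matrix protein, had 1178 and 329 (4.18-fold lower), and aggrecan, Acan, had 451 and 153 (3.44-fold lower). Matn1, a cartilage matrilin, and Col10a1, the collagen of hypertrophic cartilage, were not well above background. Of the other members, Cnmd, a cartilage membrane protein, was at least 3.88-fold higher, Matn3 had a difference of 0.79 and the transcription factor Sox5 one of -0.93. The list thus held differences in both directions. Their part in the Col2a1 and type XI values was not tested.

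**Figure D2:**
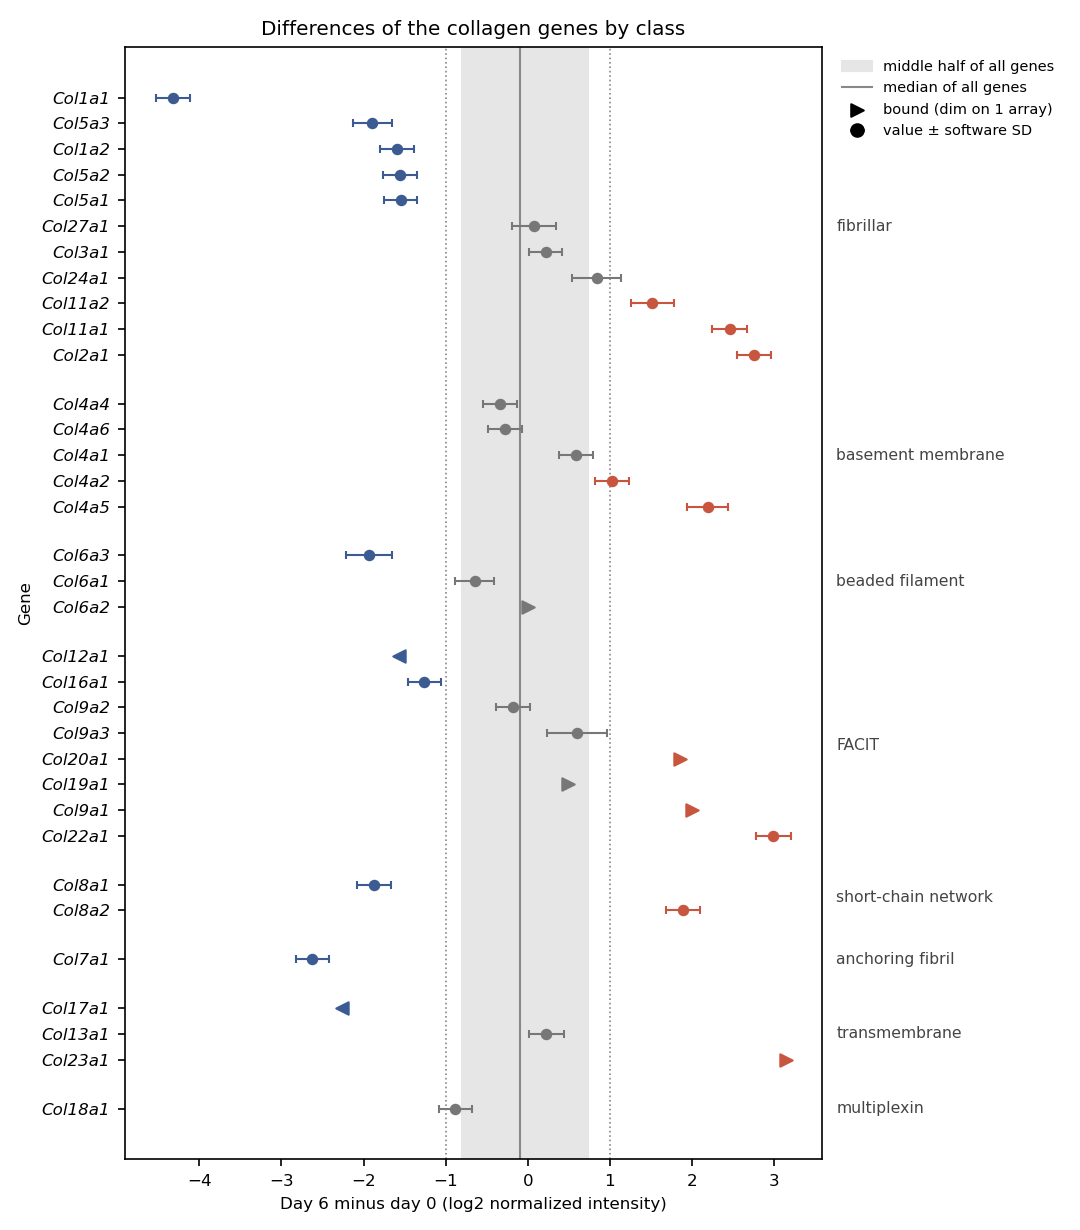
Day 6 minus day 0 difference (log2 normalized intensity) of the 34 measured collagen genes by class, with circles and bars for values ± software SD and triangles for bounds of genes dim on 1 array. The grey band runs from -0.81 to 0.73, the quartiles of all genes, and dotted lines mark 2-fold; the fibrillar class spreads from -4.32 for Col1a1 to 2.76 for Col2a1.

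Of 6 type IV genes 5 were measured by the chosen probes, of which 0 were lower, 2 were higher and 3 were under 2-fold apart (all genes: 20.1% lower, 17.8% higher). The class median was 0.59. Col4a1 and Col4a2 encode the chains of the network found in nearly all basement membranes. Col4a1 had 4159 on day 0 and 7296 on day 6 (0.59 ± 0.20), and a second probe had 1457 and 1750 (0.04 ± 0.21). Col4a2 had 2785 and 6627 (1.03 ± 0.20, 2.04-fold higher), and a second probe had 620 and 1491 (1.04 ± 0.21). The 2 Col4a2 probes gave nearly the same difference, while those of Col4a1 were 0.55 log2 units apart. The Col4a2 value is just past 2-fold and came to 0.91 with median scaling.

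Col4a5, a chain of the networks of kidney glomerulus and other specialised basement membranes, had 208 on day 0 and 1111 on day 6 (2.19 ± 0.25, 4.57-fold higher), the farthest apart of the class. Its neighbour Col4a6 had 1198 and 1157 (-0.27 ± 0.21). Of the 2 other Col4a6 probes, 1 had 27.3 on day 0, not well above background, and 212 on day 6, and 1 was dim on both arrays. Col4a4 had 6799 and 6289 (-0.34 ± 0.20), and a second probe nearer the 3′ end had 149 on day 0 and was not well above background on day 6 (21.8), at least 2.04-fold lower. The mean of both Col4a4 probes gave -1.67. Col4a3, whose product pairs with the Col4a4 and Col4a5 chains, was not well above background with any of 3 probes, so the network of these 3 chains was measured only in part.

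The second probes of Col4a1 and Col4a2 are printed as a technical check on the same arrays, close for Col4a2 and less so for Col4a1. That of Col4a1 spans an intron on the minus strand at chr8:11167857-11169691, and that of Col4a2 lies on the plus strand at chr8:11416191-11416250, both in mm7.
Col4a1 second probe: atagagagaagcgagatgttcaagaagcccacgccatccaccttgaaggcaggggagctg
Col4a2 second probe: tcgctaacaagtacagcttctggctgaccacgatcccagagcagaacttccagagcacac
Type IV genes lie in head-to-head pairs. In the RefSeq promoter windows (GRCm38.p6, 250 bases before to 50 after each gene's start), those of Col4a1 and Col4a2 overlapped by 78 bases. No other windows of different collagen genes overlapped, but Col4a3 had no window, so its pair with Col4a4 could not be compared. The Col4a1 and Col4a2 transcripts run in opposite directions, and by these starts 22 bases lie inside the 5′ ends of both. For this pair Col4a1 differed by 0.59 and Col4a2 by 1.03 log2 units. The pair Col4a5 and Col4a6 differed by 2.19 and -0.27, so the first pair lay above 0 for both genes and the second did not.

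The type IV genes can be set beside the other basement membrane genes. Of 8 listed laminins, nidogens and heparan sulfate proteoglycans 7 were measured, of which 5 were lower, 0 were higher and 2 were under 2-fold apart. Among all genes 20.1% were lower and 17.8% were higher. The median of the 7 was -2.16. Nid2, a nidogen that links laminin to type IV collagen, had 51832 and 9314 (6.50-fold lower). Lama5, a laminin chain, was 5.29-fold lower, Nid1 was 4.47-fold lower and Lamb1, the laminin beta chain of most early basement membranes, was 4.46-fold lower. Lama1 was under 2-fold apart with 1629 and 2833 (0.58 ± 0.21), as was the proteoglycan Agrn (-0.13 ± 0.20). Endoderm that lays down a thick basement membrane in embryoid bodies makes many of the same genes. Of 11 markers of parietal and primitive endoderm, all measured, 3 were lower (27.3%), 3 were higher (27.3%) and 5 were under 2-fold apart. Plat, a plasminogen activator, was 10.8-fold higher, while Lamb1 was lower and Pdgfra was higher as given above. Of the endoderm transcription factors, Sox7 was 4.26-fold lower, whereas Sox17 had 329 and 1153 (1.58 ± 0.23) and was higher. Gata6, with 473 and 504 (-0.13), and Gata4 were under 2-fold apart. The part of these listed genes in the type IV values was not tested.

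Of the 3 beaded filament collagens, all measured, 1 was lower, 0 were higher and 2 were under 2-fold apart (all genes: 20.1% lower, 17.8% higher). Col6a1 had 458 on day 0 and 341 on day 6 (-0.65 ± 0.23). Col6a3, the long chain that joins the other type VI chains, had 477 and 146 (-1.93 ± 0.28, 3.82-fold lower). Col6a2 was at the edge of detection with 116 and 118, not well above background on day 0, and a second probe had 49.5 on day 0 (not well above background) and 249 on day 6. Of the 3 chains, which form 1 trimer, Col6a3 was thus past 2-fold, and Col6a2 had no settled direction.

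Collagens that sit on fibril surfaces (FACITs, with interrupted triple helices) held the most genes seen on only 1 array. Of 9 FACIT genes 8 were measured, of which 2 were lower, 3 were higher and 3 were under 2-fold apart (all genes: 20.1% lower, 17.8% higher). Of the 8 values 4 were bounds. Col22a1, a collagen of tissue junctions such as those of muscle and tendon, had 660 on day 0 and 6127 on day 6 (2.99 ± 0.21, 7.95-fold higher), and its second probe had 414 and 7328 (3.92 ± 0.23). Both probes were well above background on both arrays and gave the same direction, with 0.93 log2 units between them. The probe chosen for Col22a1, the FACIT gene with the largest difference measured on both arrays, lies at chr15:71951550-71951609 (mm7, minus strand).
Col22a1 probe: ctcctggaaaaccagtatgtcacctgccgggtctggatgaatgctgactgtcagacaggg

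Type IX collagen coats the type II fibrils of cartilage, and its 3 chains did not move together. Col9a1 had 58.4 on day 0, not well above background, and 479 on day 6, at least 4.01-fold higher. Col9a2 had 1646 and 1691 (-0.18 ± 0.21), and Col9a3 had 111 and 196 (0.60 ± 0.36). Only Col9a1 of the trimer was past 2-fold. Its neighbour on chromosome 1, Col19a1, had 22.3 on day 0 (not well above background) and 168 on day 6, at least 1.41-fold higher. Col20a1 had 57.7 (not well above background) and 432, at least 3.62-fold higher.

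Col12a1 and Col16a1 were the FACIT genes with the opposite difference. Col12a1, a collagen of tendon and fascia fibrils, had 216 on day 0 and was not well above background on day 6 (17.7), at least 2.96-fold lower. Col16a1, which lies near small fibrils and basement membranes, had 3247 and 1584 (-1.26 ± 0.20, 2.39-fold lower). Both were brighter on day 0, as were the type I and type V chains. Col14a1, which binds fibrils of mature connective tissue, was not well above background with either of 2 probes.

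Among the other classes, genes of closely related products differed in opposite directions. Col8a1 and Col8a2 encode short chains of the sheet under the corneal endothelium and of vessel walls. Col8a1 had 9917 on day 0 and 3160 on day 6 (-1.87 ± 0.20, 3.66-fold lower), and its second probe gave -1.84. Col8a2 had 736 and 3184 (1.89 ± 0.21, 3.71-fold higher). Both differences were several times the software error, which holds no variation between cultures. Col7a1, the anchoring fibril collagen that fastens epidermis to dermis, had 10390 and 1967 (-2.62 ± 0.20, 6.17-fold lower).

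The transmembrane collagens were equally mixed. Col17a1, a part of the hemidesmosomes that fix epithelial cells to their basement membrane, had 349 on day 0 and was not well above background on day 6 (56.3), at least 4.79-fold lower. Col23a1 had 42.1 on day 0, not well above background, and 1052 on day 6, at least 8.81-fold higher, the highest bound of the family. A second Col23a1 probe had 54.8 on day 0, where it was not well above background, and 550 on day 6. Col13a1, which is found at the neuromuscular junction among other sites, had 576 and 785 (0.22 ± 0.21). Of the multiplexins, whose C-terminal end can be released as endostatin, Col18a1 of basement membranes had 84071 and 53203 (-0.88 ± 0.20), and a second probe had 38344 and 24175 (-0.89). Col18a1 stayed bright on both arrays and under 2-fold apart, and Col15a1 was not well above background.

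**Figure D3:**
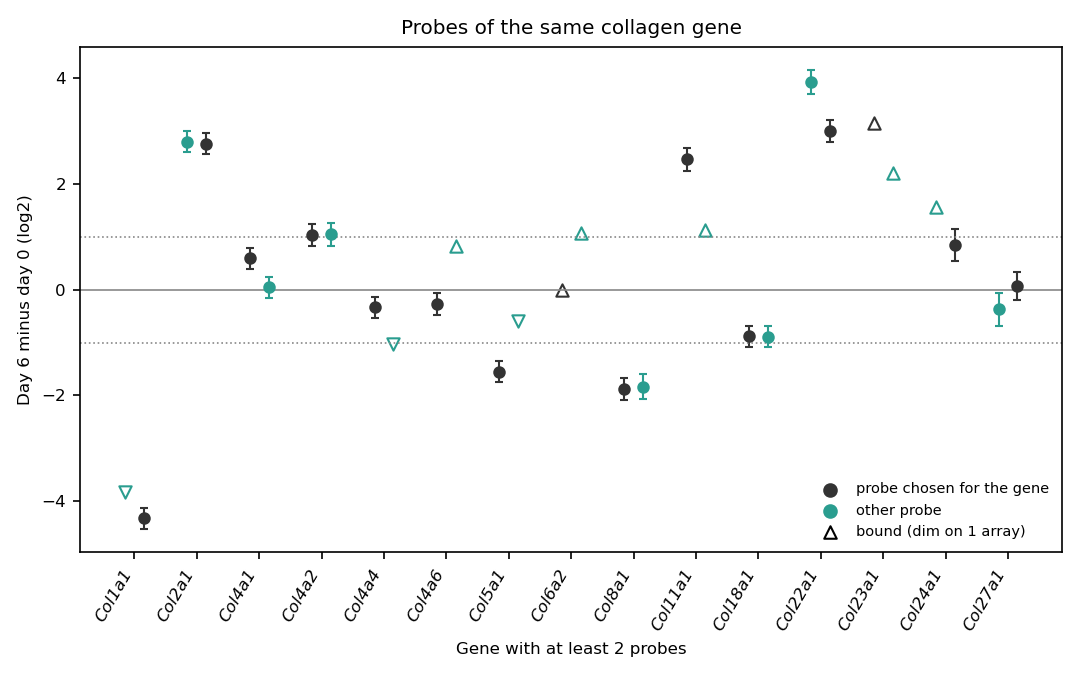
Day 6 minus day 0 difference (log2) of each usable probe of the 15 collagen genes with 2 or more such probes, with bars for the software SD, filled circles for probes well above background on both arrays and open triangles for bounds. No gene has a probe 2-fold lower beside another 2-fold higher, and the Col22a1 probes lie at 2.99 and 3.92.

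Probes of the same gene gave a technical check of these values. In 7 genes 2 probes were well above background on both arrays, and in 5 of them the probes were under 0.5 log2 units apart, the exceptions being Col4a1 and Col22a1. Of the 15 genes with 2 or more usable probes, 0 had probes past 2-fold in opposite directions. Detection was also counted by position along the gene, with no test. In the 28 genes with several probes, 23 of the 28 probes nearest the 3′ end were well above background on 1 or both arrays, 7 of 12 within 2000 bases upstream of it, and 9 of 26 farther upstream. Distances are genomic and include introns. Probes that span an intron were seen in 4 of 11 cases. A dim upstream probe beside a bright 3′ probe, as in Col1a2 (22.6 beside 22278 on day 0), was not read as absence of the gene.

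Some collagen probes show the repeat that defines the family. In the triple helix glycine, coded by GGN, recurs with a period of 3 residues, so GG recurs every 9 bases. The pattern GGNNNNNNNGGNNNNNNNGGNNNNNNNGG, with 4 such codons in a row and searched on the transcript strand of the probes, was found in 3 of 78 collagen probes (3.85%) and in 14 of all 41174 gene probes (0.0340%). The 3 are printed because they show which part of the chain they target, with GGN codons in capitals. They lie at chr17:32131401-32131567 (plus strand), chr2:27994034-27996457 (plus strand) and chr9:20655471-20656200 (minus strand) in mm7, and each spans an intron.
Col11a2 helix probe: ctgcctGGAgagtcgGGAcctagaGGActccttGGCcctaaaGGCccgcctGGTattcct
Col5a1 helix probe: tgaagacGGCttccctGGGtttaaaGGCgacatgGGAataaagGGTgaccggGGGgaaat
Col5a3 helix probe: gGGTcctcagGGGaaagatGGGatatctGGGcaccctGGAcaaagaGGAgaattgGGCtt
The Col5a1 helix probe had 111 on day 0 and was not well above background on day 6 (68.9). The Col11a2 helix probe (34.0 and 43.5) and the Col5a3 helix probe (21.2 and 22.5) were dim on both. All 3 of these genes were measured by other probes closer to the 3′ end.

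Promoter windows of the family were set beside all windows of the same length. The RefSeq table (GRCm38.p6) held 35 windows of 300 bases for 32 of the 40 collagen genes, among 32851 windows of 27025 genes. A GC box (GGGCGG, a motif bound by Sp1 family factors, either strand) was found in 20 of 35 collagen windows (57.1%) and in 35.7% of all. CCAAT was found in 12 (34.3%) against 37.4% of all, and TATAAA in 5 (14.3%) against 13.6%. These counts describe letters in the windows and were not related to the differences between days.

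Genes that modify, fold, cleave, cross-link, bind or degrade collagen were described as 8 lists by role. Of 79 listed genes 66 were measured, of which 24 (36.4%) were lower, 12 (18.2%) were higher and 30 were under 2-fold apart on day 6, with a median of -0.34. Of all genes 20.1% were lower and 17.8% were higher, so the share of higher genes was near the background. Genes of the first steps inside the cell were mostly under 2-fold apart, as were 62.2% of all genes. Of 14 measured hydroxylation and glycosylation genes 1 was lower, 2 were higher and 11 were under 2-fold apart. These 11 were not all close between days, since P4ha2 was 1.95-fold higher and P3h3 was higher by just under 2-fold. Crtap, a partner in prolyl 3-hydroxylation, was the lower gene with 27484 and 5347 (-2.59 ± 0.20). P4ha1, a prolyl 4-hydroxylase subunit, was 2.84-fold higher and P3h2, a prolyl 3-hydroxylase, was 2.41-fold higher. Of 8 measured folding and export genes 2 were lower and 2 were higher. Among them Fkbp14, a prolyl isomerase of the endoplasmic reticulum, had 1472 and 7125 (2.05 ± 0.21, 4.15-fold higher). Serpinh1, the collagen chaperone HSP47, had 50271 and 156974 (2.67-fold higher), while the isomerase Fkbp10 was 3.01-fold lower.

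Of 6 measured propeptide cleavage genes 4 were lower and 1 was higher (all genes: 20.1% lower, 17.8% higher). The median of the 6 was -3.11 (-2.42 with genes dim on 1 array set to their bounds). Pcolce2 and Pcolce, enhancers of the protease that removes the C-terminal propeptide of fibrillar collagens, had 28830 and 1625 (20.7-fold lower) and 61475 and 3790 (18.9-fold lower). The protease gene Tll1 was at least 7.28-fold lower, while Bmp1, the main C-propeptide protease, was under 2-fold apart (0.20 ± 0.20). Adamts3, which removes the N-terminal propeptide of type II procollagen among its substrates, had 148 and 1522 (3.14 ± 0.31, 8.84-fold higher). Adamts2, of the same list, had 456 and 136 (3.92-fold lower). Whether any of these genes changed with the collagens that their products act on was not tested.

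Of 7 cross-linking genes, all measured, 2 were lower and 2 were higher (28.6% each way, beside 20.1% lower and 17.8% higher among all genes). Lox had 8589 on day 0 and only 43.4, not well above background, on day 6, and Loxl4 was at least 4.37-fold lower. Loxl2, a lysyl oxidase that acts on type IV collagen, was 2.30-fold higher, and Pxdn, the peroxidase that forms sulfilimine cross-links in type IV collagen, had 6006 and 18529 (2.64-fold higher). So Lox, known best from fibrils, and the type IV enzymes Loxl2 and Pxdn differed in opposite directions.

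**Figure D4:**
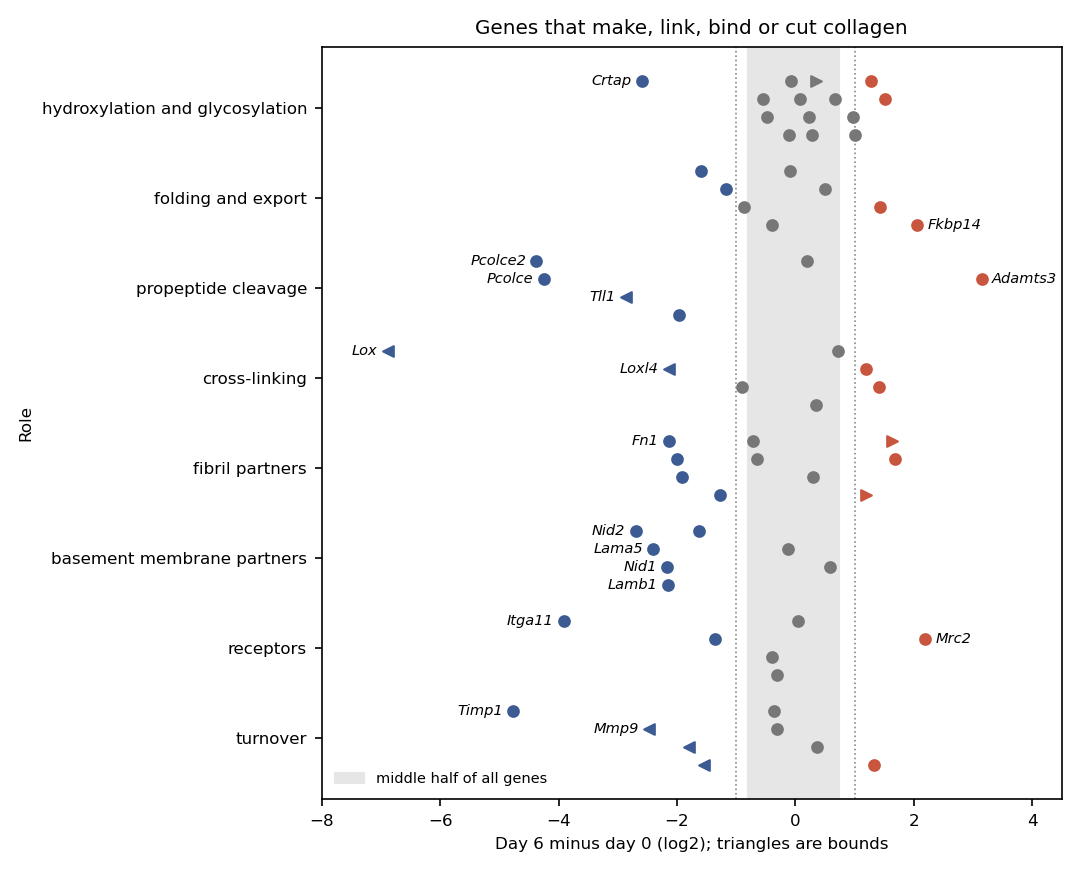
Day 6 minus day 0 difference (log2) of the 66 measured genes of the 8 role lists, with triangles for bounds, names for genes 4-fold or more apart and a grey band for the quartiles of all genes. Lox, Timp1, Pcolce2 and Pcolce lie far to the left and Adamts3 farthest to the right, while 11 of 14 hydroxylation and glycosylation genes lie within 2-fold.

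Among 10 measured fibril partners 4 were lower and 3 were higher (all genes: 20.1% lower, 17.8% higher). Fibronectin, Fn1, a scaffold for collagen assembly, had 14697 and 3898 (4.40-fold lower). Of 6 measured collagen receptors 2 were lower and 1 was higher. Itga11, an integrin subunit that binds type I collagen, had 2247 and 174 (-3.91 ± 0.26, 15.1-fold lower), whereas Mrc2, a receptor that takes up collagen fragments, had 239 and 1268 (2.19 ± 0.25, 4.55-fold higher). Itgb1 and Ddr1, collagen receptors of wide expression, were under 2-fold apart (-0.31 and 0.04). Of 8 measured turnover genes 4 were lower and 1 was higher. Timp1, an inhibitor of matrix metalloproteinases, had 36706 and 1574 (-4.77 ± 0.20, 27.2-fold lower), and the gelatinase Mmp9 was at least 5.53-fold lower, while Mmp2 was 2.50-fold higher. Receptors thus held 4-fold differences in both directions, while turnover genes held 4-fold differences only on the lower side.

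The labelled cell types were set against their markers. All 5 ES cell markers were lower on day 6 (median -6.50), including Tdgf1 (172-fold), Pou5f1 (161-fold) and Esrrb (90.3-fold). Of 5 neural progenitor markers 4 were higher (median 2.49), including Fabp7 (319-fold), Hes5 (268-fold) and Pax6 (5.60-fold), and of 4 neuron markers 3 were higher, Dcx by at least 93.5-fold, Elavl4 by 59.2-fold and Tubb3 by 3.16-fold. Of lists for other cell types that make collagen, 3 held lower genes and no gene higher by 2-fold (all genes: 20.1% lower, 17.8% higher). Of 6 osteoblast markers 3 were lower, Spp1 by 70.0-fold, Alpl by 5.67-fold and Ibsp by at least 2.39-fold. Of 5 measured endothelial markers 3 were lower, Tek by at least 12.3-fold, Pecam1 by at least 9.59-fold and Kdr by 2.52-fold. Of 4 measured markers of meninges and pericytes 3 were lower, Aldh1a2 by 5.83-fold, Cspg4 by 4.03-fold and Kcnj8 by at least 3.08-fold. The other measured genes of these 3 lists were under 2-fold apart. Which cells gave the day 0 signals of the listed genes was not tested, nor was the part of these lists in the collagen values.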

How the data were processed

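Total RNA of 2 samples was measured on 1 array each. Spot intensities in the deposited scanner output were, per the file headers, background-subtracted and detrended by Feature Extraction 9.5.3.1, which also gave an error and marked spots well above background, saturated or outlying. A table of log2 values deposited by the authors was also used, whose scale and direction were settled by comparison with the scanner files (Pearson correlation of differences 0.989 across probes, which are not independent; column medians 8.53), while the steps that made it and its centring stay unknown. It served as an alternative. Both arrays lay on the same slide at different positions, and position cannot be told apart from group.

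Control and outlier spots were left out, spots of a probe were averaged on the log2 scale, and the 75th percentile of each array was subtracted. In all, 25227 probes (61.5%) on day 0 and 26882 (65.5%) on day 6 were well above background, with a lowest such intensity of 102 and 85.2. Precision is limited by the number of arrays. For bright probes the software SD follows from its multiplicative setting of 0.1. Probes were named by accession or symbol through a RefSeq table (GRCm38.p6), and the remaining 8455 probes had no symbol. Probe positions are those of the files (mm7, NCBI build 35), and exon annotation of that build was not used here. The analysis used Python 3.11.15, pandas 2.3.3 and, for normexp with an offset of 50, limma 3.58.1 in R 4.3.3. The counting was tested on simulated data. There, changes were put only into genes with a bright probe on day 0, so changes of genes dim on day 0 were not covered.

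The members, the lists and the rule for named genes were chosen with earlier results of these data known. Every measured collagen is named with its values. Of the role lists, genes 4-fold or more apart are named, up to 4 a list, and of the marker lists up to 3, the farthest first, and other genes were named after their values were seen. The alternatives changed the scaling, background correction, filter, choice of probe, outlier spots or values used.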

Additional observations from a re-analysis of the deposited data

How the results depend on the processing

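No paired analysis was possible because each group held 1 array. Counting every probe gave no value per gene, so each gene was followed in at most 11 of the 12 alternatives. Changing the filter or setting dim genes to their bounds left the counted values of these genes as they were. No collagen spot was an outlier, so keeping outlier spots hardly moved them. In the alternatives that gave a value per gene, 20 of the 21 collagens past 2-fold kept their side wherever they were measured. Genes dim on 1 array were judged by their bounds. The exception was Col4a2, under 2-fold with median scaling (0.91). Of the 13 others, Col24a1 passed 2-fold with the mean of its probes (2.24). Without bounds so did Col4a4 (-1.67) and Col4a6 (1.23) with that mean, Col6a2 with normexp (1.06), and Col19a1 in all settings that gave no bound. Under median scaling all genes had a median of -0.21 in place of -0.09, and 5 collagens were 4-fold lower. Counting every probe, 17 of 49 usable collagen probes were 2-fold higher and 14 were 2-fold lower, against 17.6% and 18.6% of all probes. When probes of a gene were averaged, the median was 0.22 for the family, -0.15 for the fibrillar and 1.04 for the basement membrane collagens. With no filter it was 0.16 for basement membrane and -0.33 for the other collagens. Requiring both arrays well above background gave -1.29 for beaded filament and -0.18 for the other collagens. Class medians near 0 therefore have no settled sign. Why these values moved was not tested. Probes near background limit Col6a2, which ranged from -0.31 to 1.06.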

Other observations

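Several probes for collagens lie outside the symbol rule because the array used older names. Emid2, listed by RefSeq as Col26a1, had 98.9 on day 0, not well above background, and 3830 on day 6, at least 32.1-fold higher, a larger bound than that of any named collagen (Col23a1, at least 8.81-fold). The probe 1110001D15Rik, listed as the type VI gene Col6a4, had 793 and 122 (-2.93 ± 0.31, 7.61-fold lower). A probe described as similar to the alpha 3 chain of type VI (LOC235580) had 224 and 142 (-0.88 ± 0.30). C530001D20Rik, listed as Col11a1, had 22.1 on day 0, not well above background, and 134 on day 6, at least 1.12-fold higher. E330026B02Rik, listed as Col6a6, and unnamed transcripts described as collagens XI and XII were not well above background. These genes were singled out after their values were seen.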
